A study of Mus musculus with 6 samples.

Results

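The genes described here are 9 smooth muscle contractile genes, Actg2, Cnn1, Myh11, Acta2, Tagln, Des, Smtn, Lmod1 and Myocd, together with the ATP receptor gene P2rx1, 10 of the 19937 genes that the arrays measured with a probe set of their own. They were measured in adipose tissue of 3 WT mice and 3 cavin-3 KO mice, littermates 10 weeks old and fasted for 6 hours, with 1 Affymetrix Mouse Gene 1.0 ST array per mouse (WT1 to WT3 and KO1 to KO3). The KO mice lack Cavin-3 in the germline and carry lacZ and neo sequence at its locus. The line used for these arrays came from 1 targeted ES cell clone on a C57BL/6 background, and the labels do not name the fat depot. The genes were chosen with their levels on these same 6 arrays known, both how they varied together and how WT compared with KO. Those values are therefore given as a description, and nothing is read from how many of them passed a threshold.

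Smooth muscle contracts when calcium entry leads to phosphorylation of the myosin light chain, which lets smooth muscle myosin pull on actin filaments anchored through desmin and other linkers. The genes of this apparatus are switched on together by serum response factor and its partner myocardin, which act through a DNA element called the CArG box. P2X1, the protein of P2rx1, is a cation channel opened by ATP, best known for nerve-driven contraction of the vas deferens and the urinary bladder and also present on platelets. In fat, such genes are expected mainly from the walls of blood vessels, which are also rich in caveolae, the membrane pits that cavins coat.

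The signal given for a gene is the log2 of its deposited intensity, so a difference of 1 is a doubling. Levels are compared between arrays for the same gene only, since probe sets differ in brightness. The targeted gene, cavin-3 (Prkcdbp, listed as Cavin3), had a signal of 10.05 to 10.90 in WT and 6.78 to 7.12 in KO. The methods state that male animals only were analysed, yet Xist, the RNA of the inactive X chromosome, had a signal of 11.15 in WT2 and 11.34 in KO3 and 3.70 to 6.30 in the other 4 arrays, and the Y-linked Uty had 3.36 and 3.21 in WT2 and KO3 against 7.89 to 8.14 in the others. Results are therefore also given without WT2 and KO3. Adipocyte markers were high on every array, with a list mean of 11.87 to 12.07 over 11 genes.

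The sequences shown next are the CArG boxes found before the start that a promoter table gives for a member. They are given because myocardin and serum response factor act through this element. Of the 10 genes, 6 (Acta2, Cnn1, Des, Lmod1, P2rx1 and Smtn) matched a RefSeq promoter table (GRCm38.p6), with 1 promoter each. The 250 bases before each start were searched on both strands, which for this palindromic element read alike, allowing 1 base other than A or T among its 6 central bases. Acta2 held 2 such boxes, each with 1 such base, beginning 84 and 34 bases before the start that the table uses. The RefSeq gene span of Acta2 reaches to 34255585 on chromosome 19 and so holds both boxes. They are printed 5′ to 3′ on the strand of the gene (minus), with the box in capitals and 10 bases on either side.
Acta2, chr19:34255438-34255467: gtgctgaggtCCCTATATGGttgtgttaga
Acta2, chr19:34255388-34255417: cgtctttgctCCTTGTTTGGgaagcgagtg
Of all 32851 promoters in that table, 8.59% held at least 1 box by this rule and 0.67% at least 2. No box by this rule was found in the window of the other 5 genes, which says only that these letters are not in that window.

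All 10 genes had their highest signals in WT1 and KO2, 1 array of each genotype. Over all genes, 8.5% had WT1 and KO2 as their 2 highest arrays, and among the 1525 genes that varied by at least 1 over the 6 arrays it was 36.5%. Since the members were chosen with their co-variation known, nothing is read from this count. KO1 was the lowest array for 9 of the 10, where 15% of all genes had KO1 lowest. The exception was Smtn, lowest in WT2.

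Actg2, the gamma smooth muscle actin of gut, bladder and genital tract muscle, had a signal of 10.96 in WT1, 9.43 in WT2, 7.51 in WT3, 6.75 in KO1, 11.07 in KO2 and 8.33 in KO3. The highest array exceeded the lowest by 4.32, a 19.9-fold difference, and this range was wider than that of 99.7% of genes. Cnn1, which encodes calponin, a brake on actomyosin, had 11.45, 9.79 and 7.99 in WT1, WT2 and WT3 and 7.30, 11.44 and 8.74 in KO1, KO2 and KO3. Actg2 and Cnn1 followed each other most closely of the 45 pairs of members (Pearson's r = 0.999 over the 6 arrays), with WT2 and KO3 in the middle and WT3 and KO1 at the bottom.

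Myh11, the smooth muscle myosin heavy chain and the most specific marker of the mature contractile cell, had 11.47, 9.32 and 9.05 in WT1, WT2 and WT3 and 8.27, 10.94 and 9.23 in KO1, KO2 and KO3. For Myh11, WT2, WT3 and KO3 lay close together and KO1 lay below them, and the gap from the second to the third array was 1.62. Tagln, which encodes the actin-binding protein SM22, had 10.17, 8.95 and 8.70 in WT and 7.78, 10.01 and 8.96 in KO. Acta2, the alpha smooth muscle actin that is the main actin of vascular smooth muscle, had 11.90, 10.99 and 10.82 in WT and 10.62, 11.85 and 10.75 in KO, a range of 1.28. The range of Acta2 was thus narrower than those of Actg2, Cnn1, Myh11 and Tagln. Actins are closely alike in coding sequence, and how far the probes of one actin pick up another was not analysed here.

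Des encodes desmin, the intermediate filament of all muscle. It had 10.00, 9.59 and 7.93 in WT and 7.62, 9.76 and 9.41 in KO, so WT2 and KO3 followed WT1 and KO2 and lay well above WT3 and KO1. In WT2 and KO3 the mean signal of 16 skeletal muscle genes was 8.75 and 8.88, against 5.83 to 6.64 in the other 4 arrays. Desmin is shared by skeletal and smooth muscle, and the part of skeletal muscle in the Des signal was not tested. Smtn, which encodes smoothelin, had the narrowest range of the members, 0.63, from 8.73 in WT2 to 9.36 in WT1. Its r with the other members was 0.49 to 0.89, against a median of 0.95 over the 36 pairs that did not include Smtn.

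Lmod1, a leiomodin that starts new actin filaments, had 7.38, 6.37 and 6.30 in WT and 6.11, 7.18 and 6.48 in KO. Myocd, the gene of myocardin itself, had 7.95, 6.15 and 5.40 in WT and 5.25, 7.24 and 5.36 in KO. The range of Myocd, 2.70, equals 6.52-fold, and it exceeded that of 98.8% of genes. Myocd lay above the median probe set of the array in 3 of 6 arrays and P2rx1 in 4 of 6, while the other 8 members lay above it in every array.

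**Figure D1:**
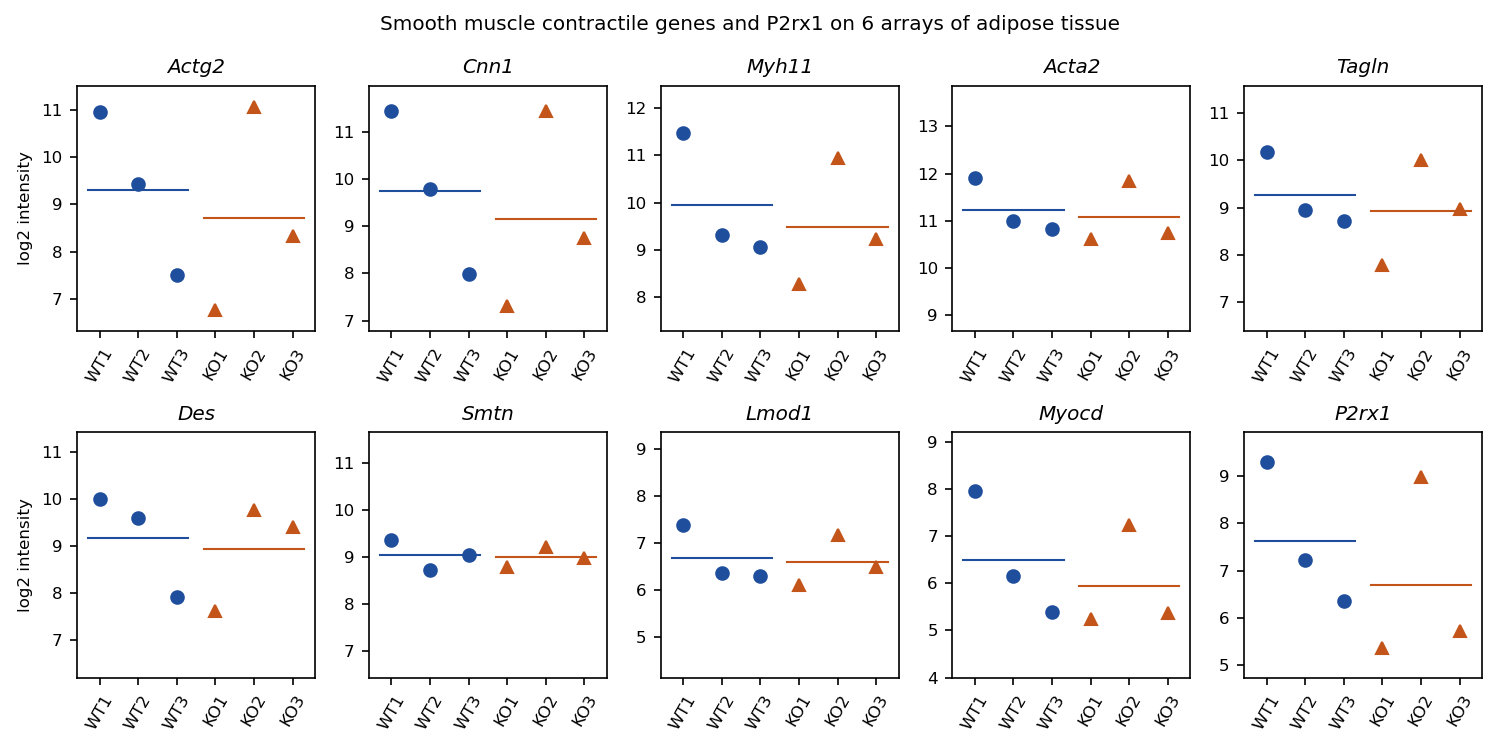
Log2 intensity of each of the 10 genes on the 3 WT arrays (blue circles) and 3 KO arrays (orange triangles), with a line at the mean of each genotype and the same span of log2 units on every vertical axis. WT1 and KO2 are the 2 highest points in every panel, and Actg2, Cnn1 and P2rx1 span the widest range (4.32, 4.15 and 3.94).

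P2rx1 had a signal of 9.30 in WT1, 7.22 in WT2 and 6.35 in WT3, and of 5.36 in KO1, 8.98 in KO2 and 5.73 in KO3. It ranged over 3.94, or 15.4-fold, wider than 99.5% of genes. WT1 and KO2 stood 1.76 above the next array, WT2. The levels of WT and KO overlapped, as they did for all 10 genes, where 4.61% of all genes had no overlap between genotypes.

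P2rx1 followed the mean of the 9 contractile genes over the 6 arrays, with Pearson's r of 0.964 and Spearman's rho of 0.943. The pair of arrays farthest from the median of that mean was WT1 and KO2, and without them r was 0.775 over the remaining 4 arrays, so the closeness rested in part on those 2 arrays. Without WT2 and KO3 it was 0.999. Of the single members, P2rx1 was closest to Acta2 (r = 0.983) and Myocd (0.977) and least close to Des (0.753) and Smtn (0.750). These values describe arrays that were in view when the genes were chosen, so no p is given.

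KO3 departed most from this common course. Its contractile mean of 8.47 was above that of WT3 (8.08) and KO1 (7.61), while its P2rx1 signal of 5.73 was below the 6.35 of WT3. As the difference within an array, P2rx1 minus the contractile mean was -2.75 in KO3, -2.25 in KO1, -1.73 in WT3, -1.59 in WT2, -0.88 in KO2 and -0.77 in WT1. This difference is meaningful only as it changes between arrays. Its mean was -1.36 ± 0.52 (SD, n = 3) for WT and -1.96 ± 0.97 (SD, n = 3) for KO, and the values of WT and KO overlapped.

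**Figure D2:**
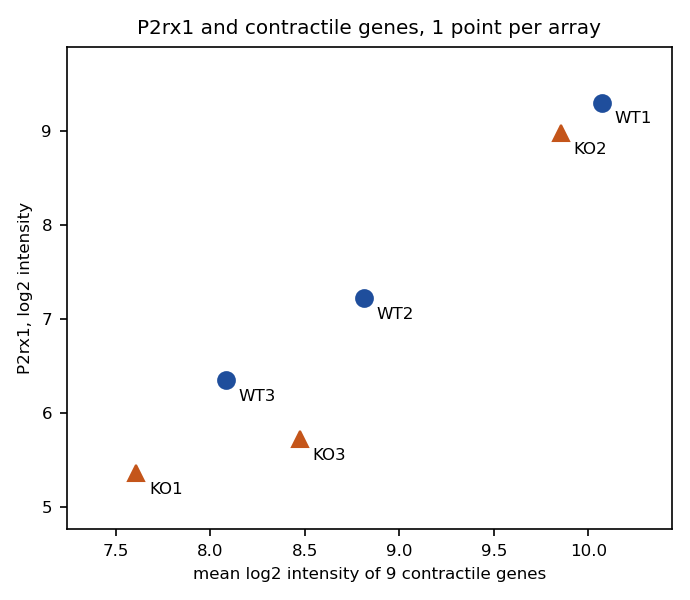
P2rx1 signal (vertical axis, log2 intensity) against the mean log2 intensity of the 9 contractile genes (horizontal axis), 1 point per array, WT as blue circles and KO as orange triangles. WT1 and KO2 lie at the upper right, and KO3 lies lower in P2rx1 (5.73) than WT3 (6.35) although its contractile mean is higher (8.47 against 8.08).

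Between genotypes, the mean of each of the 10 genes was lower in KO, where 49.7% of all genes had a lower mean in KO. By limma over all 34760 probe sets, 0 of the 10 passed an adjusted p of 0.05, 0 had an unadjusted p under 0.05, and the methods' t-test likewise gave 0 for both. By limma 0.00575% of all probe sets passed the adjusted and 1.95% the unadjusted threshold, and nothing is read from these counts of members. The difference was widest for P2rx1, at 7.62 ± 1.51 (SD, n = 3) in WT against 6.69 ± 1.99 (SD, n = 3) in KO, which is -0.94 on the log2 scale with a standard error of 1.15, or 0.522-fold. Actg2 and Cnn1 were at -0.58 each (standard errors 1.28 and 1.25), Myocd at -0.55 (0.79), Myh11 at -0.46 (0.87) and Tagln at -0.36 (0.63). Des, Acta2, Lmod1 and Smtn lay between -0.25 and -0.05. The median over the 9 contractile genes was -0.36, against 0.00 over all genes. For all 10 genes the range within a genotype was larger than the difference between genotypes. In a bulk tissue sample, fewer cells of a type cannot be told apart from less RNA per cell.

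The side on which KO lay depended on single arrays. Without WT1, 9 of the 10 genes were higher in KO, and without KO1, 8 of the 10 were. The median over the 9 contractile genes went to 0.18 without WT1 and 0.15 without KO1, and to -0.87 without WT3 and -0.91 without KO2. Actg2 was at 0.25 without WT1, 0.40 without KO1, -1.48 without WT3 and -1.76 without KO2. Cnn1 moved the same way, from -1.72 without KO2 to 0.35 without KO1. With WT2 and KO3 both left out, all 10 genes stayed lower in KO, with the contractile median at -0.32.

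P2rx1 was the member that stayed lower in KO without any single array, with a difference of -0.10 without WT1, -0.27 without KO1, -0.46 without KO3, -1.14 without WT2, -1.57 without WT3 and -2.08 without KO2. Its size thus varied from 0.933-fold to 0.236-fold with the array left out. Without WT1 and KO2 together it was -1.24, since WT2 and WT3 (7.22 and 6.35) both lay above KO1 and KO3 (5.36 and 5.73), and the contractile median was -0.43. Without WT2 and KO3 the difference of P2rx1 was -0.66. By group medians it was -1.50, and as the ratio of mean linear intensities -0.53 on the log2 scale. The contractile median was nearer 0 by both, at -0.18 by group medians and -0.23 by linear means. By group medians Tagln (0.01) and Lmod1 (0.12) were higher in KO and the other 8 members lower.

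**Figure D3:**
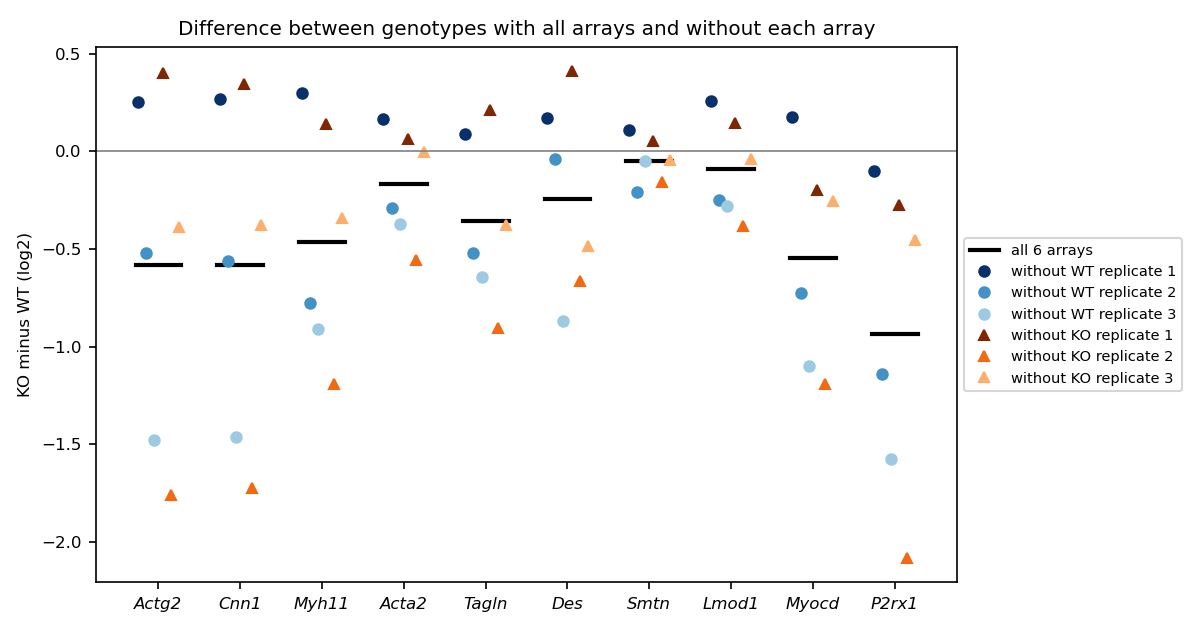
KO minus WT difference (log2) of each gene with all 6 arrays (black bars) and without each array in turn (WT arrays as blue circles, KO arrays as orange triangles). Without WT1 or KO1 most points lie above 0, without WT3 or KO2 they lie lowest for every gene except Smtn, and every point of P2rx1 is below 0 (-2.08 to -0.10).

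Other genes of smooth muscle were then followed from lists that do not contain the 10. In the 15 lists, 208 of 232 genes were measured, and 0 of the 208 passed an adjusted p of 0.05 between genotypes by limma or by the methods' t-test, with 0 at an unadjusted p under 0.05 in either. Of 24 measured genes of the smooth muscle cytoskeleton, 17 had WT1 and KO2 as their 2 highest arrays, where 8.5% of all genes did, and their median r with the contractile mean was 0.85, against -0.15 over all genes. Tpm2, a tropomyosin that lies along the actin filament, had 10.02, 8.78 and 7.53 in WT and 6.98, 9.52 and 9.08 in KO. Myl9, the regulatory myosin light chain whose phosphorylation starts contraction, had 11.43, 9.74 and 9.90 in WT and 9.11, 11.21 and 9.91 in KO. Pgm5, a protein of adherens plaques, had 10.27, 8.38 and 8.07 in WT and 7.79, 9.93 and 8.05 in KO. Pdlim3, which binds alpha-actinin, had 10.02, 8.98 and 7.51 in WT and 7.26, 9.57 and 9.42 in KO, so that KO3 nearly equalled KO2. The KO minus WT difference had a median of -0.11 in this list, and 17 of the 24 genes were lower in KO, against 49.7% of all genes.

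The genes around serum response factor did not share the pattern as a group. Of 14 measured genes 1 had WT1 and KO2 highest, and the median r with the contractile mean was 0.29. In KO 7 of the 14 were lower (median difference 0.00), near the 49.7% of all genes. That 1 gene was Tgfb1i1, which encodes the coactivator Hic-5, at 9.31 in WT1, 9.17 in KO2 and 8.49 to 8.68 on the other arrays. Csrp2, Prrx1 and Foxf1 were highest in KO3 or WT2. The range of Foxf1, a transcription factor of visceral smooth muscle, was 1.42, with 7.41 in both WT2 and KO3. Myocd, a member, was thus unlike most of these regulators over the 6 arrays.

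Among smooth muscle channels, calcium handling genes and receptors, the median r was 0.43. Of these 20 genes 7 (35%) had WT1 and KO2 highest, where 8.5% of all genes did. Among all genes that varied by at least 1 it was 36.5%. The muscarinic receptor genes, through which acetylcholine contracts the gut and bladder, were among the 7. Chrm3 had 7.56 in WT1 and 7.50 in KO2 and 6.06 to 6.65 on the other arrays, and Chrm2 had 6.03 and 5.24 against 4.57 to 5.13. Ptger3, a receptor for prostaglandin E2, was instead highest in WT2 (9.55) and KO3 (9.21), and Pde5a, which breaks down cyclic GMP, was highest in KO3 (8.13). In this list 13 of the 20 genes were lower in KO, where 49.7% of all genes were, with a median difference of -0.06.

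Of 19 other measured purinergic genes, which were P2X and P2Y receptors, ectonucleotidases and the vesicular ATP carrier, 5 (26.3%) had WT1 and KO2 highest, where 8.5% of all genes did, and the median r with P2rx1 was -0.01. Slc17a9, which loads ATP into vesicles, came closest of the genes named, with 6.33 in WT1, 5.84 in KO2 and 5.21 to 5.67 on the other arrays. Nt5e, which makes adenosine from AMP, was at 8.92 in WT1 and lowest in WT2 (6.76) and KO3 (7.53). P2rx5 and Entpd3 were highest in WT2 (7.22 and 6.41). In this list 9 of the 19 genes were lower in KO, near the 49.7% of all genes, with a median difference of 0.01.

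The lists of pericyte and mural cell genes and of endothelial genes did not stand high on WT1 and KO2. They leave out the members, among them Acta2, the main actin of vascular smooth muscle. The part of vessel walls in the signals of the members was not tested. Of 14 genes of pericytes and vascular mural cells 1 had WT1 and KO2 highest, the median r with the contractile mean was -0.40, and the list mean lay between 7.98 in WT2 and 8.36 in WT3. The 1 gene was Heyl, a Notch target, with 7.56 in WT1 and 8.02 in KO2. Pdgfrb, the PDGF receptor of pericytes, was at 9.50 in WT1 and 9.67 in KO2, inside the 9.21 to 10.00 of the other arrays. Of 10 endothelial genes 0 had WT1 and KO2 highest, and their mean lay between 9.37 and 9.73. The KO minus WT differences had a median of 0.09 for mural cell genes and 0.07 for endothelial genes. Lower in KO were 3 of 14 and 2 of 10, against 49.7% of all genes.

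**Figure D4:**
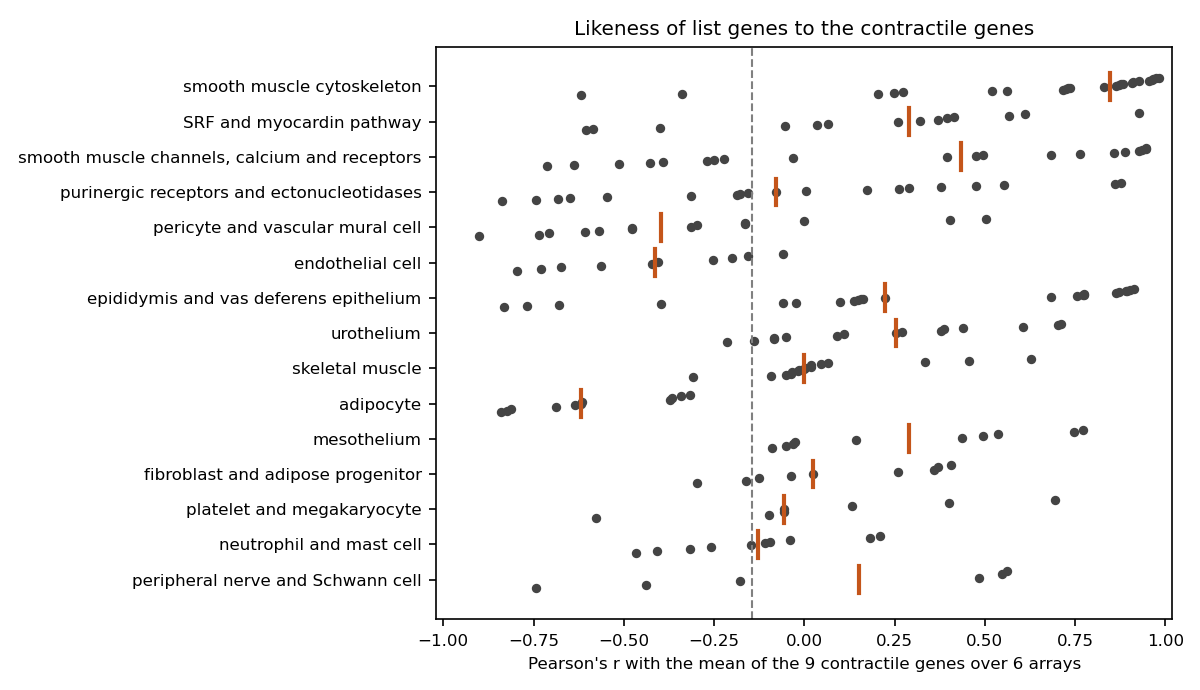
Pearson's r of each list gene with the mean of the 9 contractile genes over the 6 arrays (grey points, 1 per gene), by list, with the list median as an orange bar and the median over all genes as a dashed line. The smooth muscle cytoskeleton list lies farthest to the right (median 0.85) and the adipocyte list farthest to the left (median -0.62).

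Some genes of genital tract epithelium were also highest on WT1 and KO2. Of 23 measured genes of epididymis and vas deferens epithelium, 8 (34.8%) had WT1 and KO2 highest. Over all genes it was 8.5%, and among those that varied by at least 1 it was 36.5%. The list mean was 5.51 in WT1 and 5.27 in KO2 against 4.16 to 4.46 on the other arrays. Adam7, a sperm-maturation gene of the epididymis, had 10.33 in WT1, 9.19 in KO2 and 3.67 to 4.51 elsewhere. Wfdc10 had 11.65 and 11.27 against 6.22 to 6.53, and Crisp4 had 7.04 and 6.56 against 2.63 to 2.87. These are wider steps than those of any contractile gene. The list was not high as a whole, with a median r with the contractile mean of 0.22. Its genes had a median range of 0.40, against 0.38 over all genes, so the list mean rested on a part of them. Sult1e1 separated the arrays in another way, at 9.50 to 9.94 in 4 arrays and 3.29 and 2.99 in WT2 and KO3. The part of such tissue in the contractile and P2rx1 signals of WT1 and KO2 was not tested. Without WT1 and KO2 the contractile mean ranged over 1.20 in the other 4 arrays, from 7.61 in KO1 to 8.81 in WT2, compared with 2.46 over all 6.

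WT2, which held the third highest signal of P2rx1, Actg2, Cnn1, Myh11 and Acta2, was the highest array for urothelium genes. Their mean over 15 genes was 7.64 in WT2 and 5.70 to 6.20 on the others. Upk1a, a uroplakin of the bladder surface, had 9.61 in WT2 and 5.23 to 6.41 elsewhere, and Sprr1a, Krt5 and Psca were likewise highest there (9.80, 8.23 and 7.74). Krt5 was also high in WT1 (7.15) and KO2 (7.28) against 4.76 to 5.15 in WT3, KO1 and KO3. Of the 15 genes 14 were lower in KO (median difference -0.54), where 49.7% of all genes were. The list mean was highest in WT2 (7.64), and the count was not taken again without WT2. It was 6.20 in WT1 and 5.72 in WT3, and 5.70, 6.09 and 5.76 in KO1, KO2 and KO3. The part of urothelial tissue in the signals of WT2 was not tested.

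Lists of the other cells that a fat sample can hold varied less or on other arrays. Skeletal muscle genes, such as Myh1 and Atp2a1, had WT1 and KO2 highest in 0 of 16 cases and a median r with the contractile mean of 0.00. Of 10 mesothelial genes 3 (30%) had WT1 and KO2 highest, where 8.5% of all genes did and 36.5% of those that varied by at least 1. The 3 were keratins, which other epithelia share, with ranges of 2.53 (Krt8), 2.20 (Krt18) and 1.89 (Krt19). The mesothelial list mean lay between 7.91 and 8.60. Genes of fibroblasts and adipose progenitors (9 measured), neutrophils and mast cells (10) and peripheral nerve (6) had 0 genes with WT1 and KO2 highest, and their list means ranged over 0.57, 0.53 and 0.31. Platelet genes, relevant because platelets carry P2X1, had a median r with P2rx1 of 0.11 over 7 measured genes and a list mean between 6.06 and 6.48, with Pf4 at 8.56 to 9.32. The 11 adipocyte genes ran opposite to the contractile mean (median r -0.62) but over a narrow range, with the list mean lowest in WT1 (11.87) and highest in KO1 (12.07).

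**Figure D5:**
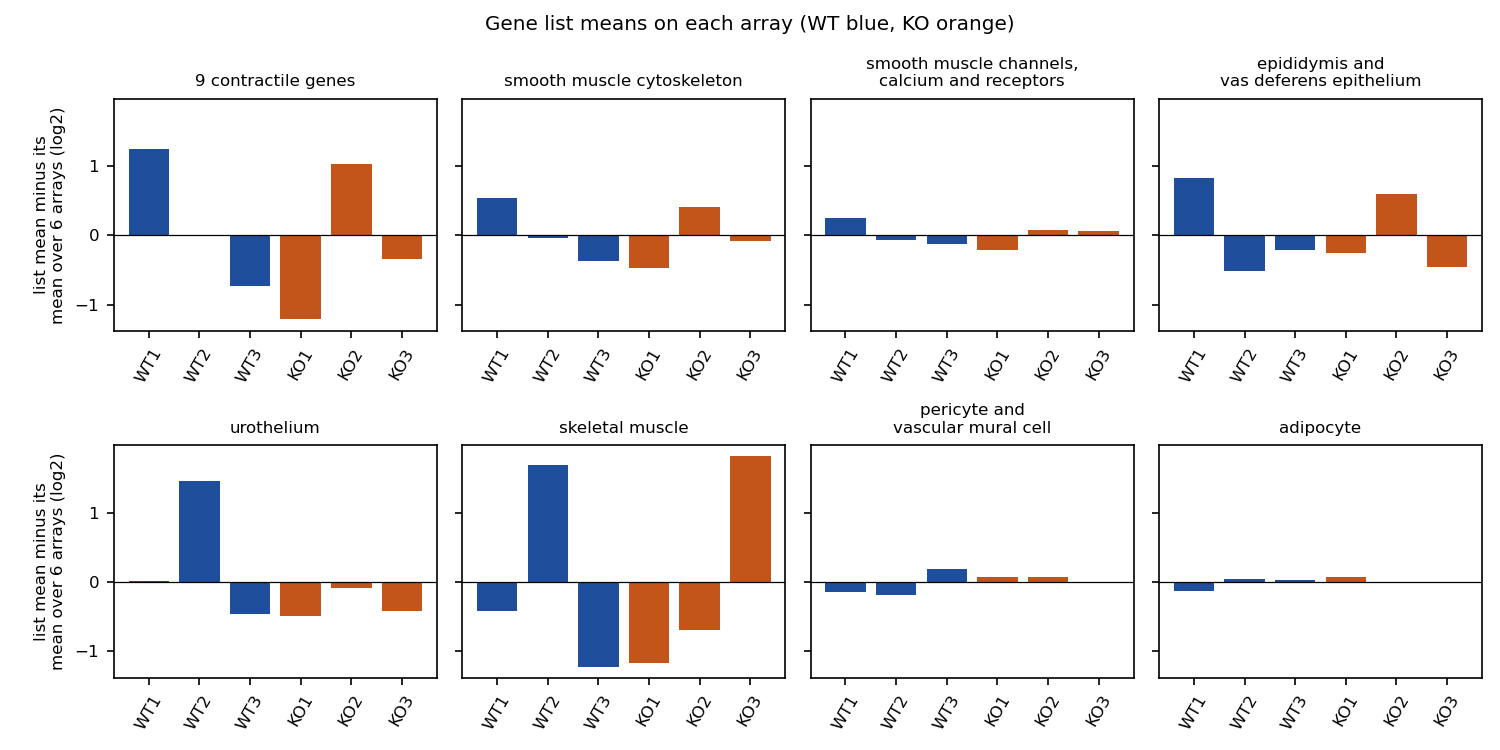
Mean log2 intensity of the 9 contractile genes and of 7 gene lists on each array, as the difference from the mean over the 6 arrays (WT blue, KO orange). Contractile, cytoskeletal and epididymal lists stand highest on WT1 and KO2, urothelium on WT2, and skeletal muscle on WT2 and KO3, while mural cell and adipocyte lists stay within 0.2 of their mean.

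Outside the lists, likeness was ranked by Pearson's r over the 6 arrays among 474 genes with a mean signal of at least 7 and a range of at least 1. The genes most like the contractile mean were Pla2g4a (r = 0.985), the cytosolic phospholipase A2 that releases arachidonic acid, Basp1 (0.981), Stc1 (0.978), which encodes stanniocalcin-1, Pcp4l1 (0.977), Adgrg6 (0.977), an adhesion receptor, Pdlim7 (0.976), Slc39a8 (0.968), a zinc and manganese importer, and Tpm1 (0.966), a tropomyosin. Pdlim7 and Tpm1 are also on the cytoskeleton list. Pla2g4a had 8.32 in WT1 and 8.27 in KO2 and 6.62 to 7.50 on the other arrays, with a KO minus WT difference of -0.10.

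The 8 genes most like P2rx1 were Ptgr1 (r = 0.988), which inactivates prostaglandins and leukotrienes, Basp1 (0.986), Pgm5 (0.973), Pdlim7 (0.969), Pcp4l1 (0.956), Ptges (0.949), which makes prostaglandin E2, Capn5 (0.948), a calpain, and Mal (0.946), a protein of apical membrane sorting. Basp1, Pdlim7 and Pcp4l1 stood in both rankings. Ptgr1 had 8.78, 7.65 and 6.96 in WT and 6.80, 8.52 and 6.65 in KO, and like P2rx1 it was lower in KO3 than in WT3. Each of these 13 genes had a lower mean in KO (differences from -0.48 to -0.03), where 49.7% of all genes did. They were picked for following, on the same arrays, signals that were themselves lower in KO, so nothing is read from this count. Over all genes, 1.61% reached an r of 0.9 with the contractile mean and 1.63% with P2rx1, among points that share the same 6 arrays.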

How the data were processed

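Adipose RNA of 3 WT and 3 cavin-3 KO mice was measured, 1 array per mouse. The authors amplified and biotin-labelled it, hybridised it to Mouse Gene 1.0 ST arrays, processed the scans with GenePattern modules (RMA in the submitters' notes, with no version) and deposited linear intensity values. These were taken to log2 and not normalized again. The genotypes were compared by limma 3.58.1 (lmFit, eBayes) in R 4.3.3 over 34760 probe sets with Benjamini-Hochberg adjustment, after the code was tested on simulated data. Arrays give no counting depth. Their number limits the precision. Genes were named from the platform annotation, with 21640 probe sets of 1 symbol, 1321 of several and 11799 not listed, and the probe set with the highest mean represents a gene. Each of the 10 genes had 1. Of the 232 list genes, older symbols were updated through RefSeq.

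Members, lists and alternatives were chosen with earlier results of these data known. Named are the members, the checks of the arrays, at most 4 genes per list with the widest range (highest minus lowest array) and the top 8 of each ranking of likeness. The alternatives were the methods' t-test, quantile normalization, median centring, no dim or no unnamed probe sets, the mean over a gene's probe sets, linear means, group medians, a replicate block and leaving out arrays. Leaving out WT1 and KO2 together was added after seeing the data.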

Additional observations from a re-analysis of the deposited data

How the results depend on the processing

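With limma on all 6 arrays 2 probe sets passed an adjusted p of 0.05 (677 at an unadjusted p under 0.05). The number was 1 with single-symbol probe sets, 0 with the methods' t-test (759 unadjusted), 0 without WT2 and KO3 (997), 0 without WT1 and KO2 (905) and 1 to 2 without each array in turn. Members past that threshold numbered 0 of 10 under all 14 alternatives. At an unadjusted p under 0.05 by limma, 1 of 10 passed without WT1 and KO2, where 905 of 34760 probe sets did. Under every other alternative 0 did, and nothing is read from these counts. Same-numbered WT and KO arrays did not deviate together (r -0.15, -0.37 and -0.09 for replicates 1, 2 and 3), so the numbers were not treated as pairs. Each WT array correlated best with a KO array of another number (0.52 for WT1 with KO2, 0.48 for WT2 with KO3 and 0.37 for WT3 with KO1). With the replicate block 0 probe sets passed (698 unadjusted). P2rx1 (-0.94) and the contractile median (-0.36) were as without it, which the balanced design fixes in advance. Only the standard error could move, and for P2rx1 it was 1.13 with the block and 1.15 without. Without WT1 and KO2 the contractile range was 1.20, and the r of P2rx1 with the contractile mean was 0.775, as it was without the 2 arrays farthest from the median, which are the same arrays. That r was 0.999 without WT2 and KO3 and 0.941 to 0.998 without each array in turn, and the contractile range was 1.99 to 2.46 in those fits. Without each array in turn the contractile median ran from -0.91 to 0.18 and P2rx1 from -2.08 to -0.10. Further quantile normalization and median centring moved P2rx1 to -0.96 and -0.94. The values carry no background measure, so how far dim signals such as Myocd stand above background is unknown.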
